A study of Mus musculus with 9 samples.

Results

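Integrins and the proteins that tie them to the cytoskeleton were measured as 37 named genes, of which 11 encode integrin alpha chains, 8 encode integrin beta chains, 5 encode other receptors for the extracellular matrix and 13 encode cytoplasmic proteins of focal adhesions. Members were chosen by gene symbol. Of the 37, 36 had at least 1 named probe, which gave 84 probes of the 45281 on the array and 36 genes of the 19057 with a named probe. Ptk2 had no named probe and was not analysed here. Expression was read on 9 Illumina MouseWG-6 bead arrays, with 3 arrays of RNA from each of 3 mouse cell lines. END2, an endoderm-like line, came from P19 embryonal carcinoma cells and was grown in DMEM/F12. PYS2 cells, a parietal endoderm-like line, came from tumor cells of strain 129, and XEN cells are an extra-embryonic endoderm stem cell line from blastocysts of the ICR strain. PYS2 and XEN cells were both grown in high-glucose DMEM, and all the media held fetal bovine serum. Strain of origin and line cannot be told apart in any comparison, nor medium and line in those with END2 cells. Each line stands for a single derivation, and nothing in the sources used here says that the 3 arrays of a line came from separate cultures, so the p-values measure only the spread between these arrays, which may be technical.

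Integrins pair an alpha chain with a beta chain in the plasma membrane, and the pair decides which matrix protein is bound. Inside the cell, talin and kindlin bind the beta tail and switch the integrin on, and vinculin, paxillin, zyxin, alpha-actinin and filamin join it to actin filaments. Extra-embryonic endoderm, which the 3 lines are used to model, secretes and rests on a basement membrane rich in laminin and type IV collagen.

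A probe was detected on an array at a detection p-value under 0.01, and present in a line when at least 2 of its 3 arrays detected it. Levels are log2 of the background-corrected and quantile-normalized signal. A gene is represented by its tested probe with the highest mean level. The arrays detected 13560 to 14940 probes in END2, 13051 to 13548 in PYS2 and 13266 to 13945 in XEN cells. END2 replicate 3 stood apart from its own line, at Euclidean distances of 72.1 and 78.5 over the tested probes from END2 replicates 1 and 2, which lay 35 apart. Values without it are given where it changes the call of a member. Of 7 markers of extra-embryonic endoderm, 5 were present in END2 cells and all 7 in PYS2 and XEN cells, with Sox7 and Sox17 not detected on any END2 array. In END2 cells Gata6 and Dab2 averaged log2 levels of 12.45 and 11.33, but Gata4, Foxa2 and Pdgfra only 6.21, 6.16 and 7.12. By qRT-PCR the authors found Gata6 but not Gata4, Pdgfra or Sox7 in END2 cells, and Foxa2 in PYS2 cells only. Their immunostaining also found no GATA4 in END2 cells. The summed signal of the 7 markers was 6622 to 10201 in END2, 22784 to 28545 in PYS2 and 21236 to 43061 in XEN cells. Of 5 markers of pluripotent cells, Nanog was present in END2 cells and Dppa5a in PYS2 and XEN cells, with no other marker present. Dppa5a averaged a log2 level of 14.48 in PYS2 cells but 5.93 in XEN cells, and Nanog averaged 6.65 in END2 cells. The summed signal of the 5 was 252 to 287 in END2, 20286 to 25139 in PYS2 and 163 to 318 in XEN cells.

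Of the 36 genes with a probe, 23 (63.9%) were present in END2 cells, 21 (58.3%) in PYS2 and 19 (52.8%) in XEN cells, beside 44.2%, 41.5% and 41.5% of all named genes. The 18 genes present in all 3 lines were Itga3, Itga5, Itgav, Itgb1 and Itgb5 among the integrins, Dag1, Ddr1 and Cd44 among the other receptors, and Ilk, Vcl, Pxn, Zyx, Parva, Bcar1, Fermt2, Actn1, Actn4 and Flna among the cytoplasmic proteins. No array detected 10 of the 36 genes, beside 9079 of all 19057 named genes. They included 4 of the 11 integrin alpha chains and 4 of the 8 beta chains. These 10 genes were Itga2, Itga4, Itga7, Itga9, Itgb2, Itgb3, Itgb7, Itgb8, the collagen receptor Ddr2 and Lims1, which encodes the ILK partner PINCH1. Their 21 probes gave signals of 8.2 to 61.8. Itga8 was detected on 1 END2 array and was not tested. Itgb2 and Itgb7 encode beta chains used by leukocytes. Of 6 leukocyte markers with a probe, none was present in END2 or PYS2 cells and 1 (Lcp1) was present in XEN cells, while Ptprc, Laptm5, Cd52 and Tyrobp were undetected on all arrays. Their summed signal was 136 to 163 in END2, 168 to 190 in PYS2 and 158 to 393 in XEN cells. On these arrays a missing detection says that the signal was not well above background, not that the transcript was absent.

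**Figure D1:**
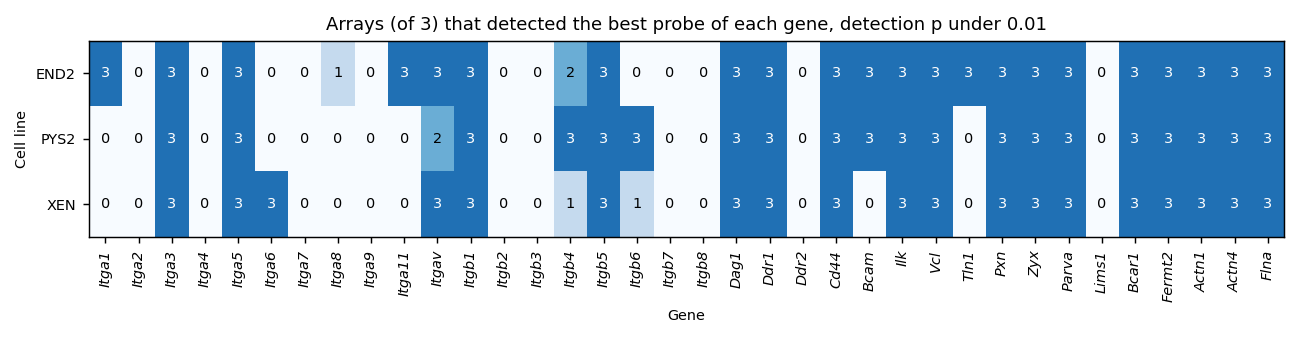
Number of arrays of 3 (printed in each cell, darker for more) that detected the best probe of each of the 36 genes with a probe, with genes along the horizontal axis and the 3 cell lines down the vertical axis. Of the cytoplasmic genes on the right, Lims1 was at 0 in all 3 lines and Tln1 was at 0 in PYS2 and XEN cells, and 8 of the 19 integrins were at 0 in all 3 lines.

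The 25 genes with a probe present in at least 1 line were compared. Itga1, Itga11 and Tln1 entered only through END2 cells, Itga6 only through XEN cells and Itgb6 only through PYS2 cells. These were the lines where they were high, so their calls are not independent of the filter, which all tested genes shared. END2 cells held higher levels of most of the 25 genes than either other line, while PYS2 and XEN cells differed in fewer and in both directions. In END2 against PYS2 cells, 15 of the 25 genes were higher and 3 were lower, where 55.3% of all tested genes were called, 26.4% higher and 28.8% lower. In END2 against XEN cells, 16 were higher and 3 lower, beside 54.2% of all tested genes called, 27.5% higher and 26.7% lower. In PYS2 against XEN cells, 4 were higher and 6 lower, beside 39.6% called, 21.2% higher and 18.4% lower. The median log2 difference over the 25 genes was 0.69, 0.79 and -0.03 in the 3 comparisons, beside -0.03, -0.02 and 0.02 over all 9354 tested genes. Calls were made with limma at a Benjamini-Hochberg adjusted p under 0.05. Both comparisons with END2 use the same END2 arrays, so their counts are not independent of each other. In the authors' normalized values, 20 of the 47 called differences were smaller by more than 1.5 times and none reversed. They were those of Itga1, Itga6, Itga11, Itgav, Itgb6, Bcam, Tln1 and Pxn, and those of Ddr1 against XEN cells. Itga11, for example, then had a log2 difference of 1.28 and Itgav one of 1.43 in END2 against PYS2 cells.

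The 13 genes that were higher in END2 cells than in both other lines were Itga1, Itga3, Itga11, Itgav, Dag1, Ddr1, Cd44, Vcl, Tln1, Pxn, Zyx, Parva and Flna. The shares of all tested genes that were higher or lower in END2 cells than in both were not computed. The counts of members on either side therefore have no base beside them. Itga5 alone was lower in END2 cells than in both. Markers of fibroblasts and mesenchyme moved the same way. Of 7 such markers, 6 (Col1a1, Col1a2, Col3a1, Thy1, Twist1 and Prrx1) were present in END2 cells, against 1 (Twist1) in PYS2 and the same 1 in XEN cells. Their summed signal was 2731 to 3440 in END2, 240 to 322 in PYS2 and 209 to 388 in XEN cells, with Pdgfrb not detected in any line. Their part in the higher adhesion genes of END2 cells was not tested. In bulk RNA, fewer cells that express a gene and less of its RNA per cell cannot be told apart.

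**Figure D2:**
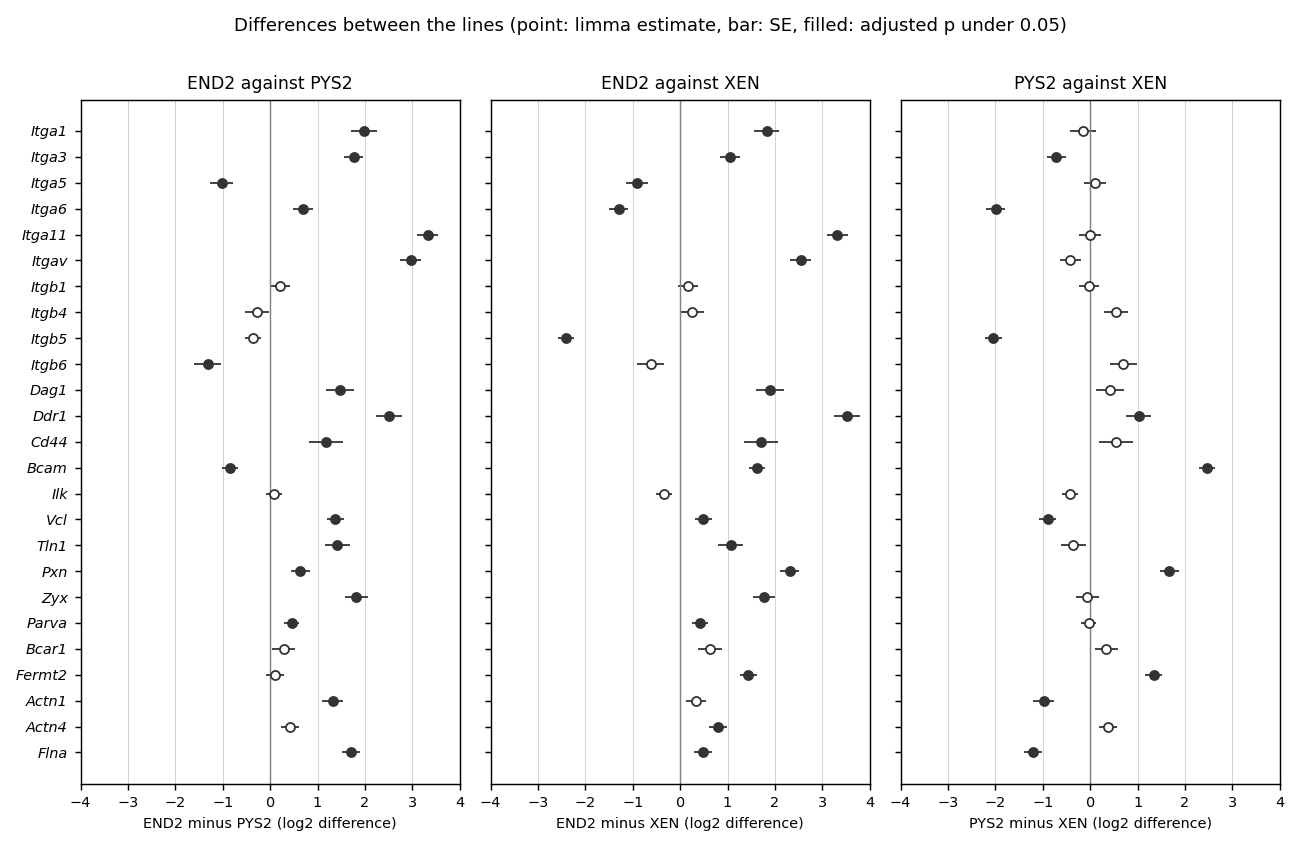
Log2 differences (horizontal axes) between END2 and PYS2, END2 and XEN, and PYS2 and XEN cells for the 25 tested genes, with bars for the standard error and filled points for an adjusted p under 0.05. Most points lie to the right of 0 in the 2 comparisons with END2 cells, and they scatter around 0 in PYS2 against XEN cells.

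Among the 6 integrin alpha chains tested, every chain passed in both comparisons with END2 cells, Itga6 without being detected in either END2 or PYS2 cells. Itga1 and Itga11 entered the test through END2 cells alone and Itga6 through XEN cells alone, the lines where they were high. Of the 6 chains, 5 were higher and 1 was lower in END2 against PYS2 cells. In END2 against XEN cells, 4 were higher and 2 were lower. In PYS2 against XEN cells, 2 were lower and 4 did not pass. Of all tested genes, 55.3%, 54.2% and 39.6% were called in these comparisons.

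Itga11, a receptor chain for fibrillar collagens, had log2 levels of 7.21, 7.86 and 8.20 on the END2 arrays, against 4.51, 4.40 and 4.39 on the PYS2 arrays and 4.54, 4.41 and 4.36 on the XEN arrays. It was detected on all END2 arrays and on no other. The fitted log2 difference was 3.32 (SE 0.225, adjusted p = 1.79e-07) in END2 against PYS2 cells and 3.32 (SE 0.225, adjusted p = 2.14e-07) in END2 against XEN cells. Since the PYS2 and XEN levels were below detection, these differences set a bound: END2 levels were at least 4.55-fold higher than PYS2 and at least 4.70-fold higher than XEN levels. For such bounds the dim line is set, on each array, to the higher of its own level and the lowest level of any detected probe. A second Itga11 probe passed in both comparisons with smaller log2 differences, 1.11 against PYS2 cells and 1.00 against XEN cells.

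Itga1, another collagen-binding chain, was likewise detected in END2 cells only, by 1 of its 2 probes. Its log2 levels were 6.56, 7.07 and 5.75 on the END2 arrays, against 4.58, 4.41 and 4.47 on the PYS2 arrays and 4.80, 4.57 and 4.54 on the XEN arrays. The END2 arrays lay above all others, with END2 replicate 3 the lowest of its line. END2 levels were at least 1.85-fold higher than PYS2 levels (adjusted p = 8.45e-05) and at least 1.91-fold higher than XEN levels (adjusted p = 0.000169).

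Itgav forms receptors for vitronectin, fibronectin and latent TGF-beta with several beta chains. It had log2 levels of 8.70, 8.22 and 8.54 on the END2 arrays, against 5.35, 5.55 and 5.64 on the PYS2 arrays and 5.66, 6.41 and 5.74 on the XEN arrays. The END2 arrays lay above all others without overlap. The log2 difference was 2.97 (SE 0.221, adjusted p = 4.23e-07, 7.84-fold) in END2 against PYS2 cells and 2.55 (SE 0.221, adjusted p = 1.88e-06, 5.84-fold) in END2 against XEN cells. PYS2 and XEN cells did not pass, with a difference of -0.42 (adjusted p = 0.161). A second Itgav probe passed in the same comparisons with smaller differences, 0.79 in END2 against PYS2 cells and 1.02 in END2 against XEN cells.

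Itga3, a laminin-binding chain of epithelia, separated all 3 lines. Its log2 levels were 11.35, 11.52 and 11.08 on the END2 arrays, against 9.54, 9.36 and 9.77 on the PYS2 arrays and 9.96, 10.62 and 10.22 on the XEN arrays. END2 arrays were the highest, XEN arrays came next and PYS2 arrays were the lowest, with no overlap between lines. END2 levels were 3.39-fold higher than PYS2 levels (adjusted p = 2.27e-05) and 2.07-fold higher than XEN levels (adjusted p = 0.00126). PYS2 levels were 1.64-fold lower than XEN levels (adjusted p = 0.0189), a call that was lost without PYS2 replicate 2 (adjusted p = 0.0733) or without XEN replicate 2 (adjusted p = 0.0814).

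Itga6, the other laminin-binding alpha chain tested, was detected in XEN cells only, by 1 of its 3 probes. Its log2 levels were 5.17, 5.17 and 5.46 on the END2 arrays, 4.45, 4.83 and 4.44 on the PYS2 arrays and 6.29, 6.95 and 6.46 on the XEN arrays. END2 levels were at least 2.35-fold lower than XEN levels (adjusted p = 0.000257), and PYS2 levels were at least 1.99-fold lower than XEN levels (adjusted p = 1.80e-05). END2 and PYS2 values also passed as different (log2 difference 0.69, adjusted p = 0.014), but the probe was not detected in either line, so no fold is given.

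Itga5, the alpha chain of the main fibronectin receptor, went the other way from the collagen-binding chains. It had log2 levels of 7.69, 7.82 and 8.55 on the END2 arrays, against 9.18, 8.81 and 9.17 on the PYS2 arrays and 9.12, 8.71 and 8.99 on the XEN arrays. The END2 arrays were below all others, with END2 replicate 3 the nearest to them. END2 levels were 2.04-fold lower than PYS2 levels (adjusted p = 0.00316) and 1.89-fold lower than XEN levels (adjusted p = 0.00629), and a second probe passed in the same direction in both comparisons (log2 differences of -1.33 and -1.04).

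Of the 4 integrin beta chains tested, none was higher in END2 cells and 1 was lower in each comparison with END2 cells. Among all tested genes, 26.4% were higher and 28.8% lower against PYS2 cells, and 27.5% were higher and 26.7% lower against XEN cells. Itgb1, the beta chain that pairs with Itga1, Itga3, Itga5, Itga6 and Itga11, passed in no comparison. Its log2 level averaged 7.29 ± 0.419 in END2 cells, 7.08 ± 0.141 in PYS2 and 7.12 ± 0.128 in XEN cells (± SD over n = 3 arrays), and its arrays overlapped in all 3 comparisons. A dimmer Itgb1 probe was higher in END2 cells than in PYS2 cells (log2 difference 0.86, adjusted p = 0.0219), and the mean of both probes also passed there (adjusted p = 0.046).

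Itgb5, which pairs with Itgav as a vitronectin receptor, was highest in XEN cells. Its log2 levels were 7.65, 8.04 and 8.19 on the END2 arrays, against 8.19, 8.42 and 8.34 on the PYS2 arrays and 10.34, 10.42 and 10.33 on the XEN arrays. The XEN arrays lay far above both other lines and close to each other. END2 levels were 5.29-fold lower than XEN levels (log2 difference -2.40, SE 0.174, adjusted p = 3.72e-07), and PYS2 levels were 4.12-fold lower than XEN levels (log2 difference -2.04, SE 0.174, adjusted p = 3.75e-06). END2 against PYS2 cells did not pass (log2 difference -0.36, adjusted p = 0.103), except without END2 replicate 3 (adjusted p = 0.0347).

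Itgb6, an epithelial partner of Itgav, was present in PYS2 cells only, by 1 of its 4 probes. Log2 levels were 4.56, 4.55 and 5.45 on the END2 arrays, against 5.69, 6.21 and 6.61 on the PYS2 arrays and 5.33, 5.40 and 5.69 on the XEN arrays, where 1 array detected it. END2 levels were at least 1.79-fold lower than PYS2 levels (adjusted p = 0.00209). END2 against XEN cells did not pass (adjusted p = 0.0866), but passed without END2 replicate 3 (adjusted p = 0.00763). PYS2 against XEN cells (adjusted p = 0.074) passed without END2 replicate 3 (adjusted p = 0.0233) or PYS2 replicate 1 (adjusted p = 0.0296).

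Itgb4, the partner of Itga6 in hemidesmosomes, averaged log2 levels of 5.93 ± 0.442 in END2 cells, 6.21 ± 0.101 in PYS2 and 5.67 ± 0.423 in XEN cells (± SD over n = 3 arrays). It was detected on 2 END2 arrays, 3 PYS2 arrays and 1 XEN array. No comparison passed, except PYS2 against XEN cells without XEN replicate 2 (adjusted p = 0.0363).

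All 4 tested receptors outside the integrin family were higher in END2 cells than in XEN cells, and 3 of the 4 were higher in END2 cells than in PYS2 cells. The shares of all tested genes higher in END2 cells were 27.5% against XEN cells and 26.4% against PYS2 cells. Ddr1 encodes a receptor tyrosine kinase for collagen. Its log2 levels were 9.65, 10.16 and 9.99 on the END2 arrays, against 7.72, 7.78 and 6.78 on the PYS2 arrays and 6.69, 6.13 and 6.40 on the XEN arrays. No line overlapped another, although PYS2 replicate 3 came close to the XEN arrays. END2 levels were 5.67-fold higher than PYS2 levels (log2 difference 2.50, SE 0.270, adjusted p = 1.08e-05) and 11.5-fold higher than XEN levels (log2 difference 3.52, SE 0.270, adjusted p = 6.24e-07). PYS2 levels were 2.03-fold higher than XEN levels (adjusted p = 0.0115), which was lost without PYS2 replicate 2 (adjusted p = 0.0538) or XEN replicate 2 (adjusted p = 0.0525). A dimmer Ddr1 probe passed in no comparison, with log2 differences of 0.11, 0.25 and 0.14, so the size of the Ddr1 difference rests on a single probe. With the mean of both probes, the log2 difference was 1.31 in END2 against PYS2 cells and 1.89 in END2 against XEN cells.

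Dag1 encodes dystroglycan, which binds laminin and perlecan. It had log2 levels of 9.79, 10.13 and 8.82 on the END2 arrays, against 7.85, 8.34 and 8.11 on the PYS2 arrays and 7.58, 7.97 and 7.48 on the XEN arrays. END2 replicate 3 was the lowest END2 array and still lay above every PYS2 and XEN array. END2 levels were 2.79-fold higher than PYS2 levels (adjusted p = 0.00135) and 3.74-fold higher than XEN levels (adjusted p = 0.000231), and a second probe gave nearly the same log2 differences (1.41 and 1.94, beside 1.48 and 1.90). Of 6 tested genes for dystroglycan processing and partners, 3 were higher and 1 was lower in END2 cells in each comparison. That made 66.7% called, beside 55.3% of all tested genes against PYS2 cells and 54.2% against XEN cells. The sarcoglycan gene Sgcb and the dystrobrevin gene Dtna were at least 8.61-fold and at least 5.74-fold higher in END2 cells than in PYS2 cells. Pomt2, an enzyme that adds O-mannose to dystroglycan, was 1.63-fold lower in END2 cells than in PYS2 cells and 3.37-fold lower in END2 cells than in XEN cells. In PYS2 against XEN cells, Sgcb and Pomt2 were lower and the other 4 genes did not pass (33.3% called, beside 39.6% of all tested genes).

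Cd44, a receptor for hyaluronan, spread widely among the END2 arrays and among the XEN arrays. The 3 END2 arrays read 9.96, 8.98 and 10.39 on the log2 scale, against 8.81, 8.38 and 8.61 on the PYS2 arrays and 7.42, 8.62 and 8.16 on the XEN arrays. The END2 arrays lay above all others, but END2 replicate 2 only narrowly. END2 levels were 3.27-fold higher than XEN levels (adjusted p = 0.00188) and 2.25-fold higher than PYS2 levels (adjusted p = 0.0167). The call against PYS2 cells was lost without END2 replicate 1 (adjusted p = 0.0531), END2 replicate 3 (adjusted p = 0.0563) or PYS2 replicate 2 (adjusted p = 0.0621), and the 2 other tested Cd44 probes did not pass in that comparison.

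Bcam, which encodes the Lutheran receptor for laminin alpha 5, was highest in PYS2 cells. Log2 levels of 6.99, 7.20 and 6.81 were read on the END2 arrays, against 7.95, 7.82 and 7.79 on the PYS2 arrays and 5.56, 5.25 and 5.35 on the XEN arrays, none of which detected it. The lines did not overlap. END2 levels were 1.80-fold lower than PYS2 levels (adjusted p = 0.00109) and at least 2.78-fold higher than XEN levels (adjusted p = 7.78e-06), and PYS2 levels were at least 5.02-fold higher than XEN levels (adjusted p = 5.44e-07). A second probe gave the same direction in all 3 comparisons but did not pass in END2 against PYS2 cells (adjusted p = 0.183).

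**Figure D3:**
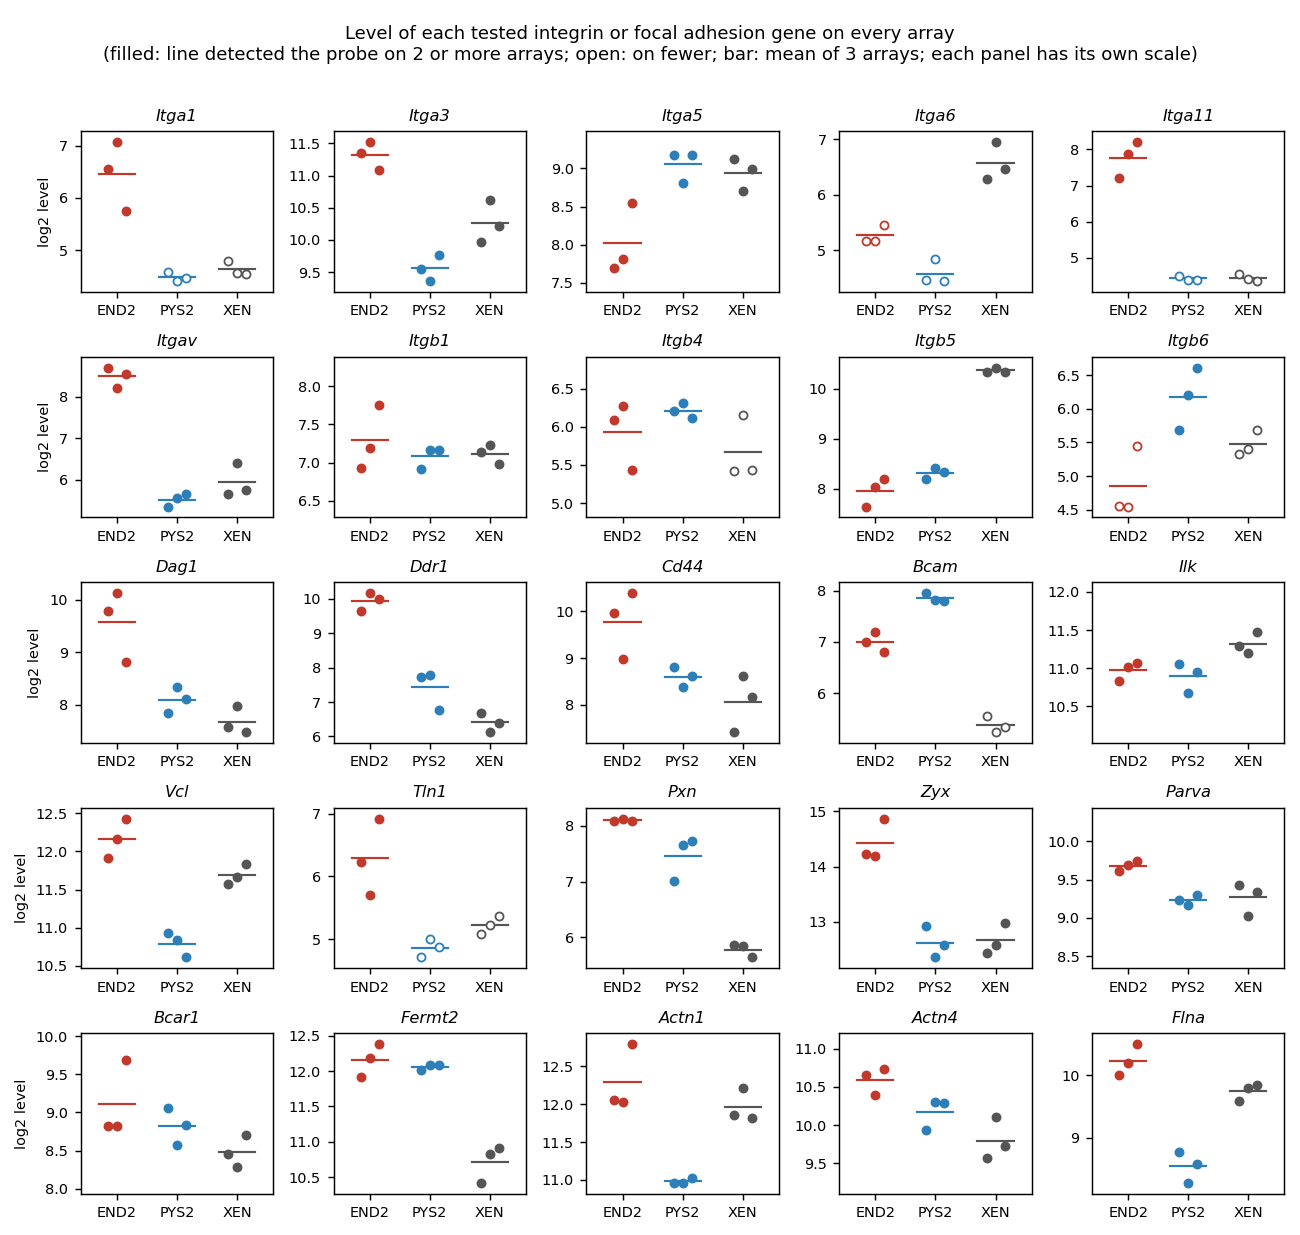
Log2 level (vertical axes, a separate scale in each panel) of the 25 tested genes on every END2, PYS2 and XEN array, with a bar at the mean of the 3 arrays and open points for a line that detected the probe on fewer than 2 arrays. Itga11 and Itgav stand high in END2 cells, Itgb5 stands high in XEN cells, and Bcam stands high in PYS2 cells.

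None of the 11 tested cytoplasmic proteins passed as lower in END2 cells. In END2 against PYS2 cells, 7 were higher and 4 did not pass, and in END2 against XEN cells, 8 were higher and 3 did not pass. In PYS2 against XEN cells, 2 were higher, 3 were lower and 6 did not pass. The shares of all tested genes called were 55.3%, 54.2% and 39.6% in the same comparisons, with 26.4%, 27.5% and 21.2% higher.

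Zyx encodes zyxin, an actin regulator that gathers at adhesions under tension. It reached log2 levels of 14.22, 14.19 and 14.87 on the END2 arrays, against 12.92, 12.35 and 12.57 on the PYS2 arrays and 12.44, 12.58 and 12.98 on the XEN arrays. Every END2 array was above every other array, while the PYS2 and XEN arrays overlapped. END2 levels were 3.53-fold higher than PYS2 levels (log2 difference 1.82, SE 0.236, adjusted p = 4.95e-05) and 3.39-fold higher than XEN levels (log2 difference 1.76, SE 0.236, adjusted p = 6.85e-05).

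Tln1, which encodes the integrin activator talin, was the only cytoplasmic gene present in a single line. It had log2 levels of 6.23, 5.71 and 6.92 on the END2 arrays, against 4.71, 5.01 and 4.88 on the PYS2 arrays and 5.08, 5.22 and 5.37 on the XEN arrays, and no PYS2 or XEN array detected it. The END2 levels were at least 1.64-fold higher than PYS2 levels (adjusted p = 0.00074) and at least 1.69-fold higher than XEN levels (adjusted p = 0.00496). Talin works in adherent cells of all kinds, and the Tln1 signals on the END2 arrays (102, 74 and 105.5) were not far above the lowest signal called detected there (50.8, 54.8 and 46.7). Tln2, a second talin gene, was present in XEN cells only and was at least 3.20-fold lower in END2 cells than in XEN cells and at least 2.71-fold lower in PYS2 cells than in XEN cells.

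Vcl, Actn1 and Flna encode vinculin, alpha-actinin and filamin A, which couple integrins to actin, and shared a low level in PYS2 cells. Vcl had log2 levels of 11.91, 12.16 and 12.43 on the END2 arrays, against 10.93, 10.84 and 10.61 on the PYS2 arrays and 11.57, 11.66 and 11.83 on the XEN arrays. Actn1 had levels of 12.06, 12.03 and 12.79 on the END2 arrays, against 10.96, 10.96 and 11.02 on the PYS2 arrays and 11.85, 12.21 and 11.82 on the XEN arrays. Flna had levels of 10.01, 10.19 and 10.50 on the END2 arrays, against 8.77, 8.27 and 8.57 on the PYS2 arrays and 9.59, 9.80 and 9.85 on the XEN arrays. For all 3 genes the PYS2 arrays lay below every array of the other lines. END2 levels were 2.59-fold (Vcl, adjusted p = 5.53e-05), 2.49-fold (Actn1, adjusted p = 0.000322) and 3.25-fold (Flna, adjusted p = 1.43e-05) higher than PYS2 levels. PYS2 levels were 1.86-fold (Vcl, adjusted p = 0.00241), 1.98-fold (Actn1, adjusted p = 0.00402) and 2.32-fold (Flna, adjusted p = 0.00042) lower than XEN levels.

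END2 and XEN cells differed less in these genes. Actn1 did not pass (log2 difference 0.33, adjusted p = 0.219) and its arrays overlapped. Vcl (0.48, adjusted p = 0.0417) and Flna (0.49, adjusted p = 0.05, just under the threshold before rounding) passed narrowly. The Vcl call was lost without END2 replicate 2 (adjusted p = 0.0799) or 3 (0.113), PYS2 replicate 2 (0.0548), or XEN replicate 1 (0.126), 2 (0.0899) or 3 (0.0522). The Flna call was lost without END2 replicate 2 (adjusted p = 0.0827) or 3 (0.13), PYS2 replicate 3 (0.0608), or XEN replicate 1 (0.155), 2 (0.0823) or 3 (0.0747).

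Fermt2 and Pxn, which encode the integrin activator kindlin-2 and the scaffold paxillin, were instead lowest in XEN cells. Fermt2 had log2 levels of 11.92, 12.18 and 12.38 on the END2 arrays, against 12.01, 12.08 and 12.09 on the PYS2 arrays and 10.42, 10.83 and 10.91 on the XEN arrays. END2 and PYS2 arrays overlapped (log2 difference 0.10, adjusted p = 0.674). END2 levels were 2.71-fold higher than XEN levels (adjusted p = 4.91e-05), and PYS2 levels were 2.53-fold higher than XEN levels (adjusted p = 0.000168). Pxn had log2 levels of 8.08, 8.13 and 8.08 on the END2 arrays, against 7.01, 7.65 and 7.72 on the PYS2 arrays and 5.86, 5.85 and 5.64 on the XEN arrays. Its END2 arrays agreed closely with each other and lay above all PYS2 arrays, which in turn lay above all XEN arrays. END2 levels were 4.97-fold higher than XEN levels (adjusted p = 1.64e-06), and PYS2 levels were 3.19-fold higher than XEN levels (adjusted p = 5.33e-05). END2 levels were 1.56-fold higher than PYS2 levels (log2 difference 0.64, adjusted p = 0.0175). Without PYS2 replicate 1, the lowest PYS2 array, this call was lost (adjusted p = 0.0648) and the log2 difference was 0.41.

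The other 4 cytoplasmic genes differed little. Parva encodes alpha-parvin, an ILK partner. It was 1.37-fold higher in END2 cells than in PYS2 cells (adjusted p = 0.0323) and 1.34-fold higher in END2 cells than in XEN cells (adjusted p = 0.0458). The Parva call against PYS2 cells was lost without END2 replicate 1 (adjusted p = 0.0556), 2 (0.069) or 3 (0.0546), or PYS2 replicate 1 (0.0662) or 2 (0.0878). Its call against XEN cells was lost without END2 replicate 1 (adjusted p = 0.0737), 2 (0.0927) or 3 (0.0745), PYS2 replicate 1 (0.0551) or 2 (0.0575), or XEN replicate 2 (0.165) or 3 (0.0725). Actn4, a second alpha-actinin, was 1.73-fold higher in END2 cells than in XEN cells (adjusted p = 0.00456) and did not pass against PYS2 cells (adjusted p = 0.0882), where 1 of its 2 other probes did (log2 difference 1.36, adjusted p = 0.00631).

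Ilk, which encodes the scaffold integrin-linked kinase, and Bcar1, which encodes the Src substrate p130Cas, passed in no comparison. In the authors' normalized values Ilk passed as lower in END2 cells than in XEN cells (log2 difference -0.34, adjusted p = 0.0344). The Ilk log2 level averaged 10.97 ± 0.125 in END2 cells, 10.89 ± 0.194 in PYS2 and 11.32 ± 0.136 in XEN cells (± SD over n = 3 arrays). PYS2 against XEN cells (adjusted p = 0.063) passed for Ilk without END2 replicate 3 (adjusted p = 0.0474). The Bcar1 log2 level averaged 9.11 ± 0.503 in END2 cells, 8.82 ± 0.248 in PYS2 and 8.48 ± 0.217 in XEN cells (± SD over n = 3 arrays). END2 against XEN cells (adjusted p = 0.0525) passed for Bcar1 without END2 replicate 1 (adjusted p = 0.0399) or 2 (0.0365).

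Of the 25 genes, 9 had 11 further tested probes, which allowed 33 comparisons between probes of the same gene. The call was the same in 23 of them. In the 12 where both probes passed, the direction was the same each time. The 10 disagreements, where by definition a single probe passed, were in Itgb1, Ddr1, Cd44, Bcam and Actn4. In PYS2 against XEN cells, a probe pair of Itgav, of Cd44 and of Actn4 had opposite signs, with neither probe past the threshold. Probes of a gene can lie in different exons or transcript ends, and which transcripts each reads was not tested. The 17 representative probes detected on all 9 arrays were read from 26 to 65 beads each, with a standard error over beads of 1.91 to 17.3% of the signal.

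**Figure D4:**
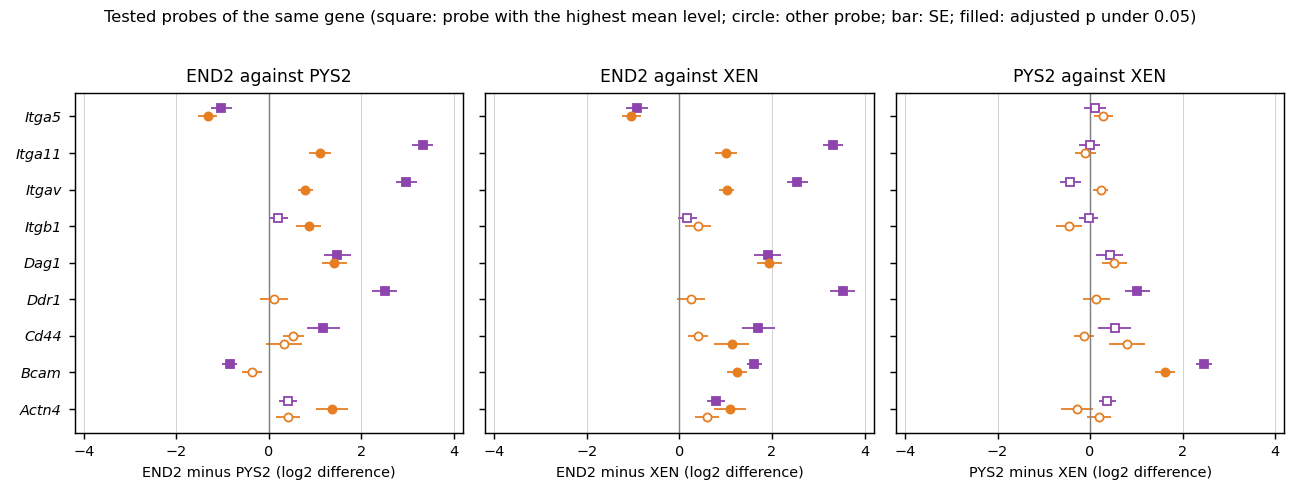
Log2 differences (horizontal axes) in the 3 comparisons for the 9 genes with more than 1 tested probe, with a square for the probe of highest mean level, circles for the others, bars for the standard error and filled marks for an adjusted p under 0.05. Both Itga5 and both Dag1 probes lie close together, while the second Itga11, Itgav and Ddr1 probes show smaller differences than the first.

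Promoter sequence was looked up for all members that had one. RefSeq (GRCm38.p6) gave a promoter for 29 of the 37 genes, 39 promoters in all, and 250 bases before each start site were searched on both strands for the CArG box bound by serum response factor, the TEAD motif GGAATG, the AP-1 motif TGANTCA, the GATA motif AGATAA and the GC box GGGCGG. The CArG box was in 3 of the 39 promoters, those of Vcl, Fermt2 and Itgb6, beside 1.47% of 32851 promoters. The TEAD motif was in 4, those of Vcl, Flna, Actn4 and Itgb1, beside 12.6% of promoters. The AP-1 motif was in 3, of Zyx, Ddr1 and Actn4, beside 6.75%, and the GATA motif in 2, of Cd44 and Lims1, beside 9.99%. The GC box was in 21 of the 39 promoters, beside 32.7%. No matches of different motifs overlapped. The promoters of 4 cytoplasmic genes with a CArG box, TEAD motif or AP-1 motif are shown as examples, 5′ to 3′ on the strand of the gene. The promoter of Actn4, which holds the TEAD and AP-1 motifs, is not shown. Capitals mark the CArG box and the TEAD motif in Vcl (chr14:20929148-20929397, plus strand), the TEAD motif on the opposite strand in Flna (chrX:74246535-74246784, minus strand), the AP-1 motif in Zyx (chr6:42349578-42349827, plus strand) and the CArG box in Fermt2 (chr14:45530066-45530315, minus strand).
Vcl: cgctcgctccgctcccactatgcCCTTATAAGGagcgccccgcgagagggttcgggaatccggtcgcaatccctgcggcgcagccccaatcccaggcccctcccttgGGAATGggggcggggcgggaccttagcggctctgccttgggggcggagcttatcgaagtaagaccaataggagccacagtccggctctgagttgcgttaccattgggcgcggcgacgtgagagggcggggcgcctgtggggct
Flna: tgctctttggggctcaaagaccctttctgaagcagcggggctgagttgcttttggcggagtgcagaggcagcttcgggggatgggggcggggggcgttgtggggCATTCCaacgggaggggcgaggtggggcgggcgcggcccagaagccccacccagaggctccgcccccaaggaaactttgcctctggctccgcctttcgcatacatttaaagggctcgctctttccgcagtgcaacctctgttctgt
Zyx: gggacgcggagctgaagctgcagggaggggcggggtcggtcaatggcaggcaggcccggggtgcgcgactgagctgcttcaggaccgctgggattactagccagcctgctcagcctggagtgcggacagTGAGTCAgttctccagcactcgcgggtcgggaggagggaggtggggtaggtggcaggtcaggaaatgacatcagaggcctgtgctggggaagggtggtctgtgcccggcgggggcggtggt
Fermt2: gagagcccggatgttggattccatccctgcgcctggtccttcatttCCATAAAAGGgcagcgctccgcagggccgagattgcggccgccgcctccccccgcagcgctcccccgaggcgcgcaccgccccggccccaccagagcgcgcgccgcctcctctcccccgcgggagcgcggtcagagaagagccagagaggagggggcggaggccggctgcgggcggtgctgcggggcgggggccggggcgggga
The Vcl CArG box lies 227 to 218 bases and its TEAD motif 143 to 138 bases before the start site. Actn1 held neither the CArG box nor the TEAD motif in this window. Any link between the motif matches and the levels was not tested. These matches describe letters and say nothing about binding.

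Genes around the members were counted in lists for comparison. Of 44 tested adhesome genes that are not members, 16 were higher and 5 lower in END2 cells than in PYS2 cells, 11 were higher and 9 lower in END2 cells than in XEN cells, and 4 were higher and 12 lower in PYS2 cells than in XEN cells. The shares called were 47.7%, 45.5% and 36.4%, below the 55.3%, 54.2% and 39.6% of all tested genes. The median log2 differences were 0.26, 0.11 and -0.11. Without END2 replicate 3, 15 of these genes were higher and 9 lower in END2 cells than in PYS2 cells. Against XEN cells, 11 were then higher and 12 lower in END2 cells. Flnc, which encodes filamin C, was at least 49.7-fold higher in END2 cells than in PYS2 cells (adjusted p = 2.15e-10) and at least 32.6-fold lower in PYS2 cells than in XEN cells (adjusted p = 2.57e-09), so that PYS2 cells were low in it as they were in Flna. Fblim1, which encodes the filamin-binding protein migfilin, was at least 14.5-fold higher in END2 cells than in PYS2 cells, 4.94-fold higher in END2 cells than in XEN cells and at least 2.94-fold lower in PYS2 cells than in XEN cells. Elmo1, a partner of the Rac activator Dock1, was at least 4.74-fold higher in END2 cells than in PYS2 cells and at least 4.89-fold higher in END2 cells than in XEN cells. Tns1, which encodes tensin 1, was at least 4.33-fold higher in END2 cells than in XEN cells. The tetraspanin gene Cd9 ran the other way, 5.85-fold lower in END2 cells than in PYS2 cells and 12.4-fold lower in END2 cells than in XEN cells. Cib1, a calcium and integrin binding protein, was 2.32-fold lower in END2 cells than in PYS2 cells and 2.21-fold lower than in XEN cells, and Csrp1, a zyxin-binding LIM protein, was 2.26-fold lower in END2 cells than in PYS2 cells and 2.11-fold higher in PYS2 cells than in XEN cells.

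Of the genes for integrins and integrin-binding proteins listed outside the members, 3 were tested. Itga2b, known from platelets, was at least 1.35-fold higher in END2 cells than in PYS2 cells and at least 1.39-fold higher in END2 cells than in XEN cells. Of 7 markers of endothelium and platelets, Gp9 was present in END2 cells, with Pf4 and Gp1bb undetected, and Cdh5 and Tek were present in PYS2 and XEN cells. Gp9 averaged nearly the same log2 level in END2 cells (5.25) and in PYS2 cells (5.23), where no array detected it. The summed signal of the 7 markers was 161 to 251 in END2, 551 to 793 in PYS2 and 1183 to 3037 in XEN cells. Their part in the Itga2b values was not tested. Itgae, whose product binds E-cadherin, was at least 1.73-fold lower in END2 cells than in PYS2 cells, at least 1.18-fold lower in END2 cells than in XEN cells and 1.47-fold higher in PYS2 cells than in XEN cells. Its ligand gene Cdh1 was at least 9.23-fold lower in END2 cells than in PYS2 cells and 6.34-fold higher in PYS2 cells than in XEN cells. Itgb1bp1, which encodes a protein that binds the Itgb1 tail, was 2.03-fold lower in END2 cells than in PYS2 cells and 2.31-fold lower in END2 cells than in XEN cells.

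Genes for ligands of integrins and the other receptors, mainly matrix proteins, were counted in the same way. The list also held Cdh1, Vcam1 and Icam1, which encode cell-surface proteins, and the growth factor gene Tgfb1. Of 22 tested ligand genes, 10 were higher and 7 lower in END2 cells than in PYS2 cells, 10 were higher and 9 lower in END2 cells than in XEN cells, and 5 were higher and 5 lower in PYS2 cells than in XEN cells. The shares called were 77.3%, 86.4% and 45.5%, beside 55.3%, 54.2% and 39.6% of all tested genes. The median log2 differences were 0.43, -0.16 and -0.03. Col1a1, which encodes a fibrillar collagen chain of the kind Itga11, Itga1 and Ddr1 products bind, was at least 36.0-fold higher in END2 cells than in PYS2 cells and at least 37.2-fold higher in END2 cells than in XEN cells. Col3a1 was at least 11.9-fold higher in END2 cells than in XEN cells. The fibronectin gene Fn1 was at least 47.9-fold higher in END2 cells than in PYS2 cells and at least 49.5-fold higher in END2 cells than in XEN cells, while Itga5, the alpha chain of its main receptor, was lower in END2 cells.

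The laminin gene Lama1 was at least 357-fold lower in END2 cells than in PYS2 cells and at least 466-fold lower in END2 cells than in XEN cells, and Lamc1 was 3.58-fold and 6.49-fold lower in END2 cells in the same comparisons. Lamb1 was 17.8-fold lower in END2 cells than in XEN cells, with a wide spread among the PYS2 arrays (SD 1.68 on the log2 scale). Of the laminin receptors among the members, Itga3 and Dag1 were higher in END2 cells than in both other lines, and Itga6 was lower in END2 cells than in XEN cells. Bcam was lower in END2 cells than in PYS2 cells but at least 2.78-fold higher in END2 cells than in XEN cells. Lama5, which encodes the laminin chain that Bcam binds, was 3.37-fold higher in PYS2 cells than in XEN cells, in the same direction as Bcam. Nid1, a linker of laminin and collagen IV, was present in END2 and XEN cells but detected on 1 PYS2 array, and it passed as lower in PYS2 cells than in XEN cells (adjusted p = 1.45e-08).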

How the data were processed

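Total RNA of the END2, PYS2 and XEN lines was measured on 9 Illumina MouseWG-6 arrays (3 a line), grouped by the sample titles. The authors' scanner table, from BeadStudio, holds each probe's signal as an intensity on a linear scale, not normalized between arrays. The sources used here do not say whether a background was subtracted. For each probe and array it also has a deposited detection score, a fraction (1 minus which served as the detection p-value), and the number and spread of beads. The authors' normalized table, made with lumi, holds deposited log2 values and was used as an alternative. A further 24 scanner columns carry no sample of the series and were not used.

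Signals were background-corrected and quantile normalized as neqc does (offset 16), with limma 3.58.1 under R version 4.3.3. Probes were named from the platform annotation, in which 34885 had 1 symbol, 18 had several and 10378 had none. Probes present in at least 1 line (detection p under 0.01 on 2 of 3 arrays) were tested, which left 16299 probes of 9354 named genes. A single limma model over the 9 arrays gave all comparisons, two-sided, with Benjamini-Hochberg adjustment over the tested probes and a threshold of 0.05. The code was tested on simulated data. Values on every array are given for members that passed with a log2 difference of at least 1 in some comparison. The other lists were adhesome genes, other integrins with integrin-binding proteins, ligands, and dystroglycan partners. From these lists, the genes named were among the 3 that differed most in each direction of each comparison. Members and lists were chosen with earlier results of these data known. The results were recomputed from the authors' normalized table, without background correction, without normalization, with cyclic loess, with other filters, with the replicate block, from fits of the 2 lines compared alone, from the mean of all probes of a gene and with each array left out. The number of arrays limits the precision. No gene coordinates are given for probes, because the sources used here do not give the genome build behind the array's annotation.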

Additional observations from a re-analysis of the deposited data

How the results depend on the processing

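Across 18 alternatives, 32 of the 47 called member differences kept their call in each, 15 lost it in at least 1, and none reversed. Of 28 differences that had not passed, 9 passed in at least 1. Without normalization between arrays 14 calls were lost, and the genes called in PYS2 against XEN cells were 6 rather than 10. The adhesome genes called were then 11 rather than 20 in END2 against XEN cells and 7 rather than 16 in PYS2 against XEN cells. Calls lost only there were Itga5 (adjusted p = 0.0831 in END2 against PYS2 and 0.131 in END2 against XEN cells), Bcam in END2 against PYS2 cells (0.232), Vcl and Actn1 in PYS2 against XEN cells (0.0667 and 0.0604) and Actn4 in END2 against XEN cells (0.0962). The cause was not tested. Itga6 in END2 against PYS2 cells was lost in the authors' normalized values (0.0931), where Ilk passed in END2 against XEN (0.0344) and PYS2 against XEN cells (0.0192). With no filter on dim probes 4 calls were lost, and with the mean of a gene's probes 8 called differences of Itga11, Itgav, Ddr1 and Cd44 were smaller by more than 1.5 times and 2 calls were lost, those of Cd44 in END2 against PYS2 cells (0.0649) and Ddr1 in PYS2 against XEN cells (0.0684).

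With each array left out in turn, the member genes called were 16 to 18 in END2 against PYS2, 16 to 19 in END2 against XEN and 8 to 12 in PYS2 against XEN cells. The adhesome genes called were 17 to 24, 14 to 23 and 12 to 17 in the same comparisons, and the ligand genes 14 to 18, 17 to 19 and 9 to 11. The deviations of same-numbered arrays from their line means correlated at -0.276 to 0.00617 for replicate 1, 0.133 to 0.235 for replicate 2 and -0.188 to 0.31 for replicate 3. Not every pair was above 0.1, so the numbers were not taken to pair the arrays. With a replicate block the member genes called were 18, 18 and 11, the adhesome genes 22, 20 and 16, and the ligand genes 17, 18 and 11, with 3 member calls lost (Vcl, Parva and Flna in END2 against XEN cells) and 3 gained (Itgb6 in END2 against XEN and PYS2 against XEN cells, and Bcar1 in END2 against XEN cells).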
